A study of Homo sapiens with 6 samples.

Results

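The 41 genes described here encode lysosomal hydrolases and the small proteins that help them: proteases, glycosidases, sulfatases, lipases, sphingolipid activators and a sulfatase-modifying enzyme. They were taken by gene symbol from a table of 60843 genes, and all 41 were found. The table came from RNA sequencing of SW872-S, a human liposarcoma cell line. The 3 TP53INP2_OE libraries were from cells carrying a plasmid that overexpresses TP53INP2, and the 3 NC libraries carried the label TP53INP2 NC, taken here as the controls of the same line; 2 cell sources are mentioned in the design text but not named. Both groups were grown in the same serum-containing medium. The labels give no time after the plasmid was introduced, no count of clones and no word on whether replicates were separate cultures, and p-values then speak only for the spread of the 6 libraries, part of which may be technical. The comparison asks what more TP53INP2 does to gene expression in these cells.

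Lysosomal hydrolases are made in the endoplasmic reticulum, tagged in the Golgi with mannose 6-phosphate and carried to the lysosome, where the low pH set by a proton pump activates them. They break down what endocytosis and autophagy deliver, and inherited loss of a single one often causes a storage disease in which its substrate piles up. Many of their genes are targets of TFEB and TFE3, transcription factors that bind an E-box-containing promoter element called CLEAR. TP53INP2 encodes a nuclear and cytoplasmic protein that helps autophagosomes form.

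The libraries held 16038062 to 17607612 reads assigned to genes. Values are FPKM, fragments scaled by gene length and a total for each library. Fold changes are differences of log2(FPKM + 1) between TP53INP2_OE and NC, tested with limma over the 14791 genes whose mean reached 0.5 FPKM. TP53INP2 had 18.9, 23.4 and 27.1 FPKM in the TP53INP2_OE libraries, against 10.6, 9.45 and 9.67 FPKM in the NC libraries. It rose as the labels say (log2 fold change 1.13, SE 0.12, adjusted p = 0.00282). Permuting its 6 values (exact, two-sided) gave p = 0.1, the smallest that 3 against 3 libraries allow. The mesenchymal marker VIM was at 734 to 782 FPKM in TP53INP2_OE and 719 to 750.5 FPKM in NC. COL1A2 was at or near 0 in all libraries, and THY1 averaged 0.140 FPKM in TP53INP2_OE and 0.174 FPKM in NC. Of 5 adipocyte markers, ADIPOQ, LEP and FABP4 were listed at 0 in all 6 libraries. PLIN1 averaged 0.101 FPKM in TP53INP2_OE and 0.0157 FPKM in NC, with no overlap between the groups. CFD averaged 0.277 FPKM in TP53INP2_OE and 0.314 FPKM in NC. Both were under the filter and not tested. COL1A1 fell to 89.0 ± 5.49 FPKM in TP53INP2_OE, against 121 ± 5.13 FPKM in NC (log2 fold change -0.44, adjusted p = 0.00317; with GC content and gene length fitted out -0.19, adjusted p = 0.0208). PDGFRB fell to 5.90 ± 0.415 FPKM in TP53INP2_OE, against 8.20 ± 0.934 FPKM in NC (-0.41, adjusted p = 0.0123; fitted out -0.22, adjusted p = 0.137). The 5 mesenchymal markers summed to 832 to 870.3 FPKM in TP53INP2_OE and 846 to 887 FPKM in NC. Of 3 endothelial markers, all reached a mean of 0.5 FPKM, summing to 32.0 to 33.4 FPKM in TP53INP2_OE and 34.5 to 39.1 FPKM in NC. Most of this was CDH5, which fell (27.8 against 32.3 FPKM, log2 fold change -0.21, adjusted p = 0.0323, fitted out -0.076, adjusted p = 0.408), while PECAM1 and VWF did not pass. The 3 epithelial markers summed to 6.24 to 7.13 FPKM in TP53INP2_OE and 7.89 to 8.31 FPKM in NC. Nearly all of this was KRT8, which fell (-0.25, adjusted p = 0.0146, fitted out -0.085, adjusted p = 0.229), with EPCAM and CDH1 near 0. The 3 of T and B cells summed to at most 0.069 FPKM in TP53INP2_OE and 0.210 FPKM in NC. The part of all these markers in the results was not tested.

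Of the 41 genes, 38 passed the filter on low values, while CTSH, IDUA and CTSO did not. Against NC, 5 rose in TP53INP2_OE (CTSS, ASAH1, MANBA, TPP1 and NPC2), 8 fell (CTSD, CTSZ, CTSB, CTSF, PPT2, ARSA, GALNS and NAGLU), and 25 did not pass an adjusted p of 0.05. The 13 that passed were 34.2% of those tested, beside 35.0% of all tested genes, with 16.4% of all tested genes higher and 18.6% lower. As deposited, the share among the hydrolases was thus near the background. In bulk RNA, fewer cells of a type and less RNA per cell cannot be told apart. Their median log2 fold change was -0.015, against 0.003 for all tested genes. At the extremes, CTSS was 1.55 times as high in TP53INP2_OE as in NC, and CTSD 0.644 times as high. In 20 of the 38 the libraries of the groups did not overlap, 7 higher and 13 lower, while the same held for 50.8% of all tested genes (25.2% higher and 25.6% lower).

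**Figure D1:**
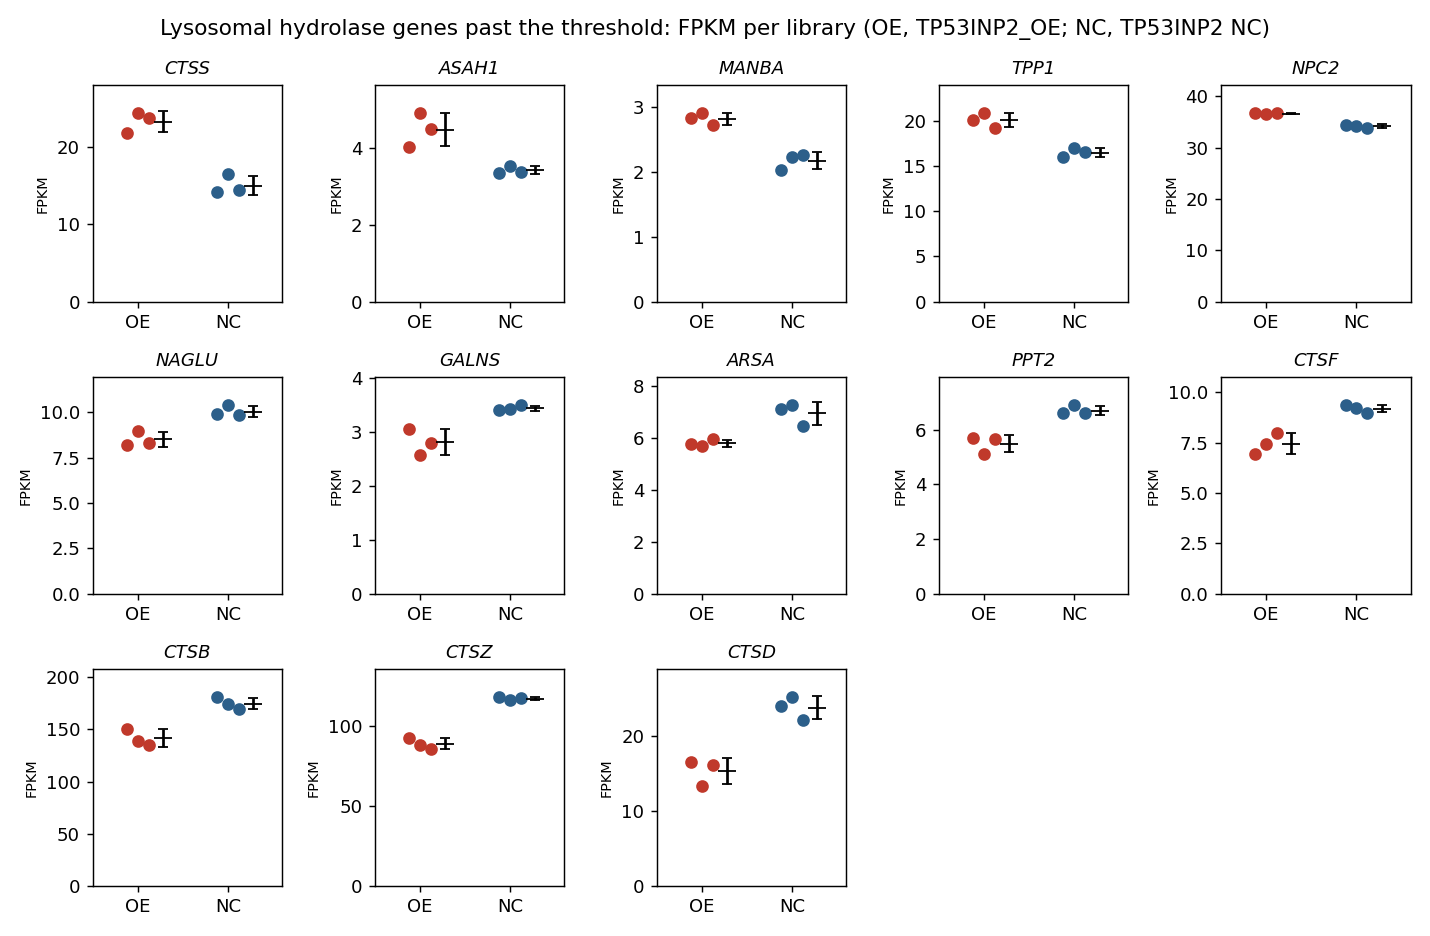
FPKM (vertical axes, each starting at 0) in the 3 TP53INP2_OE and the 3 NC libraries for each of the 13 hydrolase genes past the threshold, with points for libraries and a bar for the mean and SD beside them. In every panel the points of the groups are fully apart, and the gap is widest relative to the level in CTSS and CTSD.

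Fold changes across the whole table followed the GC content of the transcripts, with a Spearman correlation of -0.68 over 14548 genes, which share libraries and are not independent. Among the 38 hydrolases it was -0.71. The 5 that rose had transcripts of 37.3% to 50.7% GC, and the 8 that fell had 52.8% to 66.0% GC. Each fold change is therefore given a second time after trends with GC content and gene length were fitted and subtracted in each library, and is then called corrected. Corrected, 4 of 38 were higher (CTSS, TPP1, CTSL and PSAP) and 3 lower (CTSB, CTSD and CTSZ), beside 4.53% and 5.88% of all tested genes. Either way it was 10.4% of all tested genes, and the hydrolases lay above these shares. Their median corrected log2 fold change was 0.079, against 0.0016 for all tested genes. The difference of the hydrolases from this corrected background was not tested. Whether the trend is technical or biological was not tested, and the correction removes either.

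**Figure D2:**
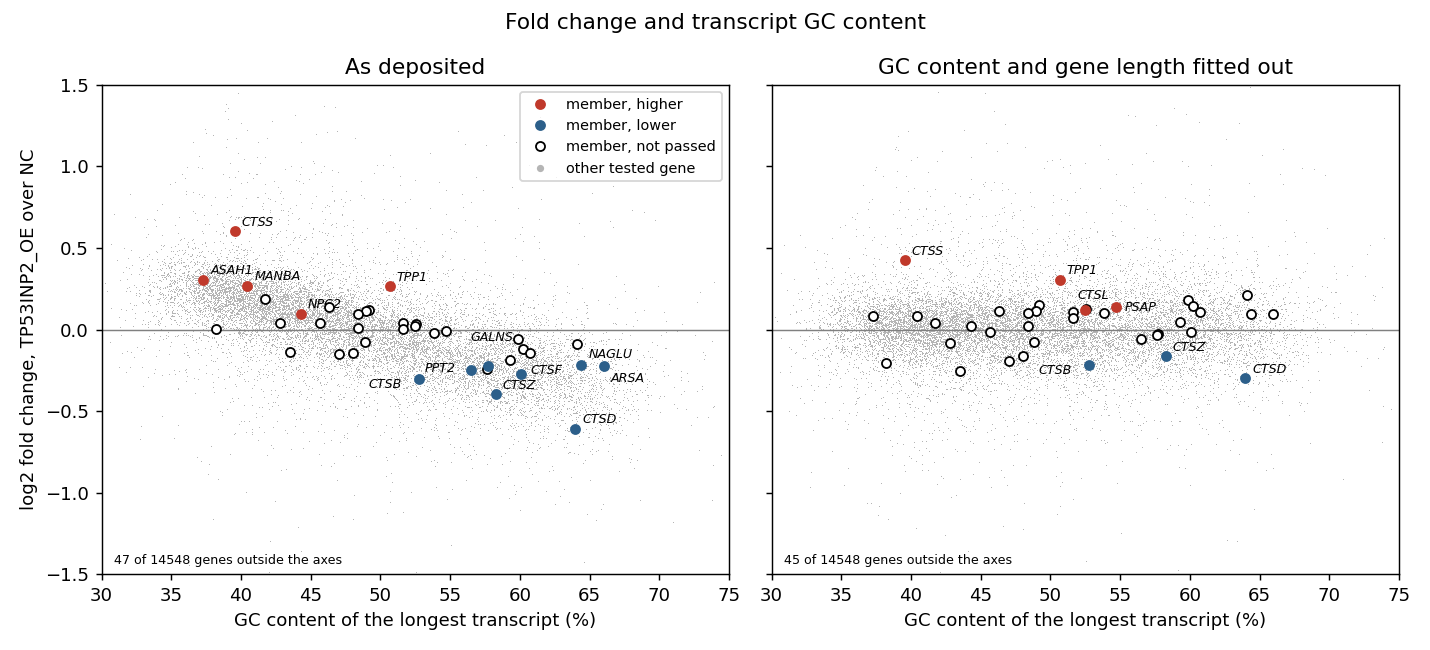
Log2 fold change, TP53INP2_OE over NC, against GC content of the longest transcript, as deposited on the left and with trends on GC content and gene length subtracted on the right. Filled points are hydrolase genes past an adjusted p of 0.05, open points those not past it, and grey dots the other tested genes. The downward slope on the left (Spearman correlation -0.71 over the 38 hydrolase genes) is 0.17 on the right.

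The cysteine cathepsins are papain-like proteases whose active site holds a cysteine in a short conserved stretch, and legumain is an asparaginyl endopeptidase that processes several of them. Of these 10 genes, 8 were tested: CTSS rose, CTSB, CTSZ and CTSF fell, and 4 did not pass. The stretches of coding sequence around the catalytic cysteine are shown for CTSS and some of its relatives, CTSB not among them. They let the gene that rose be set beside relatives that fell or did not pass. They are from the sense strand of GENCODE 29 transcripts on GRCh38, 5′ to 3′, with the codons for cysteine, glycine, any residue and cysteine in capitals, the last of which encodes the catalytic cysteine. Genomic spans include an intron in all but CTSZ.
CTSS, chr1:150751970-150755015, minus strand: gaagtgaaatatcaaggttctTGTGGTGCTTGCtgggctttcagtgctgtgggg
CTSL, chr9:87728382-87728623, plus strand: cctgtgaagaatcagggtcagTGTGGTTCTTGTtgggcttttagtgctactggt
CTSC, chr11:88296227-88300545, minus strand: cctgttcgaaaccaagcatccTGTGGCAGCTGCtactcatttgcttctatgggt
CTSF, chr11:66565889-66566036, minus strand: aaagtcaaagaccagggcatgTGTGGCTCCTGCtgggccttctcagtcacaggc
CTSZ, chr20:59006332-59006385, minus strand: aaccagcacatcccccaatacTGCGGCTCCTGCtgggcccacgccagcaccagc
Over these 54 bases, compared position by position without gaps, CTSL shared 70.4% of positions with CTSS, CTSF 59.3%, CTSC 53.7% and CTSZ 37.0%. Of relatives not shown, CTSK, which did not pass, shared 70.4%. CTSO shared 66.7% and CTSH 63.0%, and both were not tested for change. The genes differ in base composition as well, and the last base of a codon was G or C in 47.0% of codons in CTSS, 51.2% in CTSL, 53.2% in CTSC, 77.1% in CTSF and 74.3% in CTSZ.

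CTSS, cathepsin S, a protease known from antigen-presenting cells that stays active at neutral pH, had 21.7, 24.3 and 23.7 FPKM in TP53INP2_OE, against 14.1, 16.4 and 14.4 FPKM in NC. All TP53INP2_OE libraries were above all NC libraries (log2 fold change 0.60, SE 0.069, adjusted p = 0.00290), and the corrected fold change was 0.42 (adjusted p = 0.0151). It passed without each library in turn. Of 7 monocyte and macrophage markers, none reached a mean of 0.5 FPKM; AIF1 was listed at 0 in all libraries and the 7 summed to 0.445 to 0.711 FPKM in TP53INP2_OE and 0.462 to 0.717 FPKM in NC.

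CTSB, cathepsin B, an endopeptidase that also trims dipeptides from carboxyl ends, was the second highest of the 41 in FPKM. It had 151, 139 and 135 FPKM in TP53INP2_OE, against 181, 174 and 169.5 FPKM in NC. The groups were apart by a mean of 142 ± 8.35 against 175 ± 5.65 FPKM (SD, n = 3 each) (log2 fold change -0.30, SE 0.050, adjusted p = 0.00593; corrected -0.22, adjusted p = 0.0282). CTSZ, cathepsin Z, a carboxypeptidase, had 92.4, 88.1 and 85.4 FPKM in TP53INP2_OE, against 118, 116 and 117 FPKM in NC. It fell (log2 fold change -0.40, SE 0.037, adjusted p = 0.00260), and its corrected change was smaller, at -0.16 (adjusted p = 0.0375). CTSF, cathepsin F, had 6.93, 7.44 and 8.002 FPKM in TP53INP2_OE, against 9.36, 9.24 and 9.003 FPKM in NC. These libraries were also apart (log2 fold change -0.27, SE 0.056, adjusted p = 0.0113), but the call did not last after correction (-0.013, adjusted p = 0.921).

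CTSL, cathepsin L, is a strong endopeptidase and was the highest of the 41 in FPKM after PSAP and CTSB. It had 139.7, 133 and 139 FPKM in TP53INP2_OE, against 133, 139.8 and 133 FPKM in NC. The groups overlapped, and the log2 fold change was 0.019 with a 95% interval of -0.067 to 0.11 (adjusted p = 0.717). Corrected, it was 0.12 with an adjusted p of 0.0401. CTSC, which activates granule serine proteases by removing dipeptides, averaged 8.43 ± 0.406 FPKM in TP53INP2_OE and 8.40 ± 0.342 FPKM in NC, and legumain (LGMN) 16.99 ± 0.832 FPKM in TP53INP2_OE and 16.6 ± 1.12 FPKM in NC (SD, n = 3 each). Neither passed. CTSK, the collagen-degrading protease of osteoclasts, was under 1 FPKM on average in both groups, with 0.974 ± 0.0375 FPKM in TP53INP2_OE and 0.809 ± 0.294 FPKM in NC. CTSH averaged 0.408 ± 0.0797 FPKM in TP53INP2_OE and 0.545 ± 0.119 FPKM in NC and was not tested. CTSO had at most 11 reads in any library and was listed at 0 in TP53INP2_OE replicate 1.

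Of the 3 proteases with other catalytic chemistry, CTSD fell, TPP1 rose and CTSA did not pass. CTSD, cathepsin D, the main aspartic protease of the lysosome, had 16.4, 13.3 and 16.1 FPKM in TP53INP2_OE, against 24.0, 25.1 and 22.1 FPKM in NC. It fell by more than any other of the 38 tested (log2 fold change -0.61, SE 0.087, adjusted p = 0.00410), and the corrected change was -0.30 (adjusted p = 0.0300). CTSD shares 41.7% of its exon bases with AC068580.4 on the same strand, at a mean of 0.0262 FPKM. It shares 15.8% with AC068580.3 on the opposite strand, at a mean of 0.135 FPKM. How reads in shared bases were counted is not given, so the values of CTSD may rest on part of the gene. TPP1, tripeptidyl peptidase, a serine protease lost in a childhood neuronal ceroid lipofuscinosis, had 20.1, 20.8 and 19.2 FPKM in TP53INP2_OE, against 16.0, 16.9 and 16.5 FPKM in NC. It rose (log2 fold change 0.27, SE 0.043, adjusted p = 0.00560), and the corrected change of 0.31 was no smaller (adjusted p = 0.0132). CTSA, a serine carboxypeptidase that shields beta-galactosidase and neuraminidase in a complex, had 23.1, 19.0 and 22.1 FPKM in TP53INP2_OE, against 23.7, 24.2 and 23.1 FPKM in NC, and did not pass (log2 fold change -0.14, adjusted p = 0.163), though it did by voom on recovered reads (adjusted p = 0.0389). Its corrected change was 0.11 (adjusted p = 0.185). CTSA shares 3.42% of its exon bases with PLTP, at 50.8 FPKM, and 17.7% with NEURL2, at a mean of 0.829 FPKM. Both lie on the opposite strand, so part of the reads of CTSA may belong to them.

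Sphingolipids and gangliosides are stripped sugar by sugar, with saposins and the GM2 activator presenting the lipid to the enzyme. Of the 10 genes of this group, all tested, ASAH1 rose, ARSA fell and 8 did not pass. PSAP, the precursor of the saposins, was the highest of the 41 in FPKM. It had 297, 296 and 290.5 FPKM in TP53INP2_OE, against 298, 307 and 285 FPKM in NC. The TP53INP2_OE values lay inside the NC range, and the log2 fold change was -0.0087 with a 95% interval of -0.096 to 0.078 (adjusted p = 0.877). Corrected, it was 0.14 (adjusted p = 0.0449).

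ASAH1, acid ceramidase, which splits ceramide into sphingosine and a fatty acid, had 4.03, 4.90 and 4.49 FPKM in TP53INP2_OE, against 3.36, 3.53 and 3.37 FPKM in NC. It rose (log2 fold change 0.31, SE 0.070, adjusted p = 0.0164), but the adjusted p was 0.0575 without NC replicate 1, and the corrected change of 0.084 did not pass (adjusted p = 0.390). ARSA, arylsulfatase A, which removes sulfate from sulfatide, had 5.75, 5.69 and 5.95 FPKM in TP53INP2_OE, against 7.13, 7.25 and 6.45 FPKM in NC. It fell (log2 fold change -0.22, SE 0.054, adjusted p = 0.02004). That call was lost without TP53INP2_OE replicate 2, NC replicate 1 or NC replicate 2 (adjusted p of 0.0562, 0.0723 and 0.0704), and the corrected change turned to 0.096 (adjusted p = 0.245).

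The other 7 sphingolipid genes differed by small amounts. GLA, the alpha-galactosidase deficient in Fabry disease, averaged 9.66 ± 0.390 FPKM in TP53INP2_OE and 8.79 ± 0.492 FPKM in NC (SD, n = 3 each), apart but not past the threshold (adjusted p = 0.119). GM2A, the GM2 activator, averaged 15.1 ± 0.0892 FPKM in TP53INP2_OE and 14.1 ± 0.423 FPKM in NC, also apart (adjusted p = 0.0904). GALC, which cleaves galactosylceramide, averaged 7.11 ± 0.836 FPKM in TP53INP2_OE and 6.10 ± 0.324 FPKM in NC, with a 95% interval of its log2 fold change of -0.011 to 0.39 (adjusted p = 0.127; by voom 0.0216). HEXA, a subunit of beta-hexosaminidase, averaged 2.19 ± 0.185 FPKM in TP53INP2_OE and 2.54 ± 0.142 FPKM in NC (adjusted p = 0.148; by voom 0.0390), and SMPD1, acid sphingomyelinase, 15.4 ± 0.854 FPKM in TP53INP2_OE and 16.8 ± 1.21 FPKM in NC. GLB1, beta-galactosidase, and NEU1, neuraminidase, the partners of CTSA, had log2 fold changes of 0.0046 and 0.042.

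Glycosaminoglycans such as heparan and dermatan sulfate are degraded from one end by alternating sulfatases and glycosidases, each of whose losses gives a mucopolysaccharidosis. Of 9 genes in this group, 8 were tested, and 2 passed, both lower. NAGLU, which removes N-acetylglucosamine from heparan sulfate, had 8.21, 8.97 and 8.32 FPKM in TP53INP2_OE, against 9.91, 10.4 and 9.83 FPKM in NC. The groups were apart (log2 fold change -0.22, SE 0.048, adjusted p = 0.0145), but the call was lost without NC replicate 2 (adjusted p = 0.0551), and corrected, the change was 0.097 (adjusted p = 0.398). GALNS, which desulfates keratan and chondroitin sulfate, had 3.05, 2.58 and 2.80 FPKM in TP53INP2_OE, against 3.40, 3.43 and 3.49 FPKM in NC. It fell (log2 fold change -0.22, SE 0.064, adjusted p = 0.0347), yet of the 6 fits without 1 library it passed only in that without TP53INP2_OE replicate 1 (adjusted p = 0.0262), with 0.0807 to 0.0913 in the others. Its corrected change was -0.026 (adjusted p = 0.801).

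The remaining glycosaminoglycan genes did not pass. IDS, an iduronate sulfatase, averaged 2.03 ± 0.128 FPKM in TP53INP2_OE and 2.33 ± 0.0508 FPKM in NC, with no overlap (adjusted p = 0.140). GUSB, beta-glucuronidase, often used as a reference gene, averaged 14.7 ± 0.207 FPKM in TP53INP2_OE and 14.9 ± 0.642 FPKM in NC. SGSH, a sulfamidase, had a log2 fold change of -0.060, ARSB, arylsulfatase B, of -0.15, and HGSNAT, the acetyltransferase of heparan degradation, of 0.12. SUMF1, which converts the active-site cysteine of every sulfatase to formylglycine, was low, at 0.796 ± 0.124 FPKM in TP53INP2_OE and 0.892 ± 0.0169 FPKM in NC. IDUA, alpha-iduronidase, averaged 0.413 ± 0.0272 FPKM in TP53INP2_OE and 0.372 ± 0.0835 FPKM in NC and was not tested. GUSB and IDS have pseudogene copies in the genome that could take some of their reads.

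Among the 4 enzymes of glycogen and glycoprotein breakdown, MANBA rose and 3 did not pass. MANBA, beta-mannosidase, had 2.83, 2.90 and 2.72 FPKM in TP53INP2_OE, against 2.02, 2.23 and 2.26 FPKM in NC. It was higher in 3 of 3 TP53INP2_OE libraries than in any NC library (log2 fold change 0.27, SE 0.062, adjusted p = 0.0170), but the adjusted p was 0.0526 without TP53INP2_OE replicate 2, 0.0593 without NC replicate 1 and 0.0506 with no filter on low values. The corrected change was 0.086 (adjusted p = 0.388). MAN2B1, the alpha-mannosidase that acts on the other linkage, had 6.77, 6.04 and 7.04 FPKM in TP53INP2_OE, against 7.41, 8.01 and 7.55 FPKM in NC. These did not overlap either, on the opposite side, and did not pass (log2 fold change -0.19, adjusted p = 0.0593; by voom 0.0249). FUCA1, an alpha-fucosidase, averaged 3.61 ± 0.935 FPKM in TP53INP2_OE and 3.55 ± 0.640 FPKM in NC, and GAA, the glycogen-degrading glucosidase lost in Pompe disease, 0.821 ± 0.129 FPKM in TP53INP2_OE and 0.947 ± 0.295 FPKM in NC. The spread within groups was larger than the difference for both.

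In the group acting on lipids, sterols, acyl chains and phosphate, 1 of 5 rose, 1 fell and 3 did not pass. NPC2, a soluble protein that hands cholesterol to NPC1 in the lysosomal membrane, had 36.7, 36.5 and 36.7 FPKM in TP53INP2_OE, against 34.4, 34.3 and 33.7 FPKM in NC. The rise was small (log2 fold change 0.097, SE 0.029, adjusted p = 0.0419). It did not pass without any 1 of the 6 libraries (adjusted p of 0.0645 to 0.112), by limma's voom on recovered reads (0.119) or corrected (0.021, adjusted p = 0.663). PPT2, a thioesterase related to PPT1, had 5.68, 5.11 and 5.67 FPKM in TP53INP2_OE, against 6.60, 6.88 and 6.59 FPKM in NC. It fell (log2 fold change -0.25, SE 0.053, adjusted p = 0.0130), but not corrected (-0.057, adjusted p = 0.438) or without NC replicate 2 (adjusted p = 0.0504). The table also holds the readthrough transcript PPT2-EGFL8, at a mean of 0.134 FPKM, which shares 49.3% of the exon bases of PPT2.

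ACP2, lysosomal acid phosphatase, had 10.8, 8.32 and 10.1 FPKM in TP53INP2_OE, against 12.1, 11.3 and 11.5 FPKM in NC. The groups were apart without passing (log2 fold change -0.24, adjusted p = 0.0721; by voom 0.00974). LIPA, the acid lipase of cholesteryl esters and triglycerides, averaged 27.5 ± 0.454 FPKM in TP53INP2_OE and 26.7 ± 0.698 FPKM in NC, and PPT1, which removes palmitate from proteins, 33.7 ± 0.540 FPKM in TP53INP2_OE and 32.7 ± 0.926 FPKM in NC. Neither passed, and both share exon bases with genes on the opposite strand: PPT1 23.4% of its exon bases with CAP1, at 68.9 FPKM, and LIPA 1.32% with IFIT2.

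**Figure D3:**
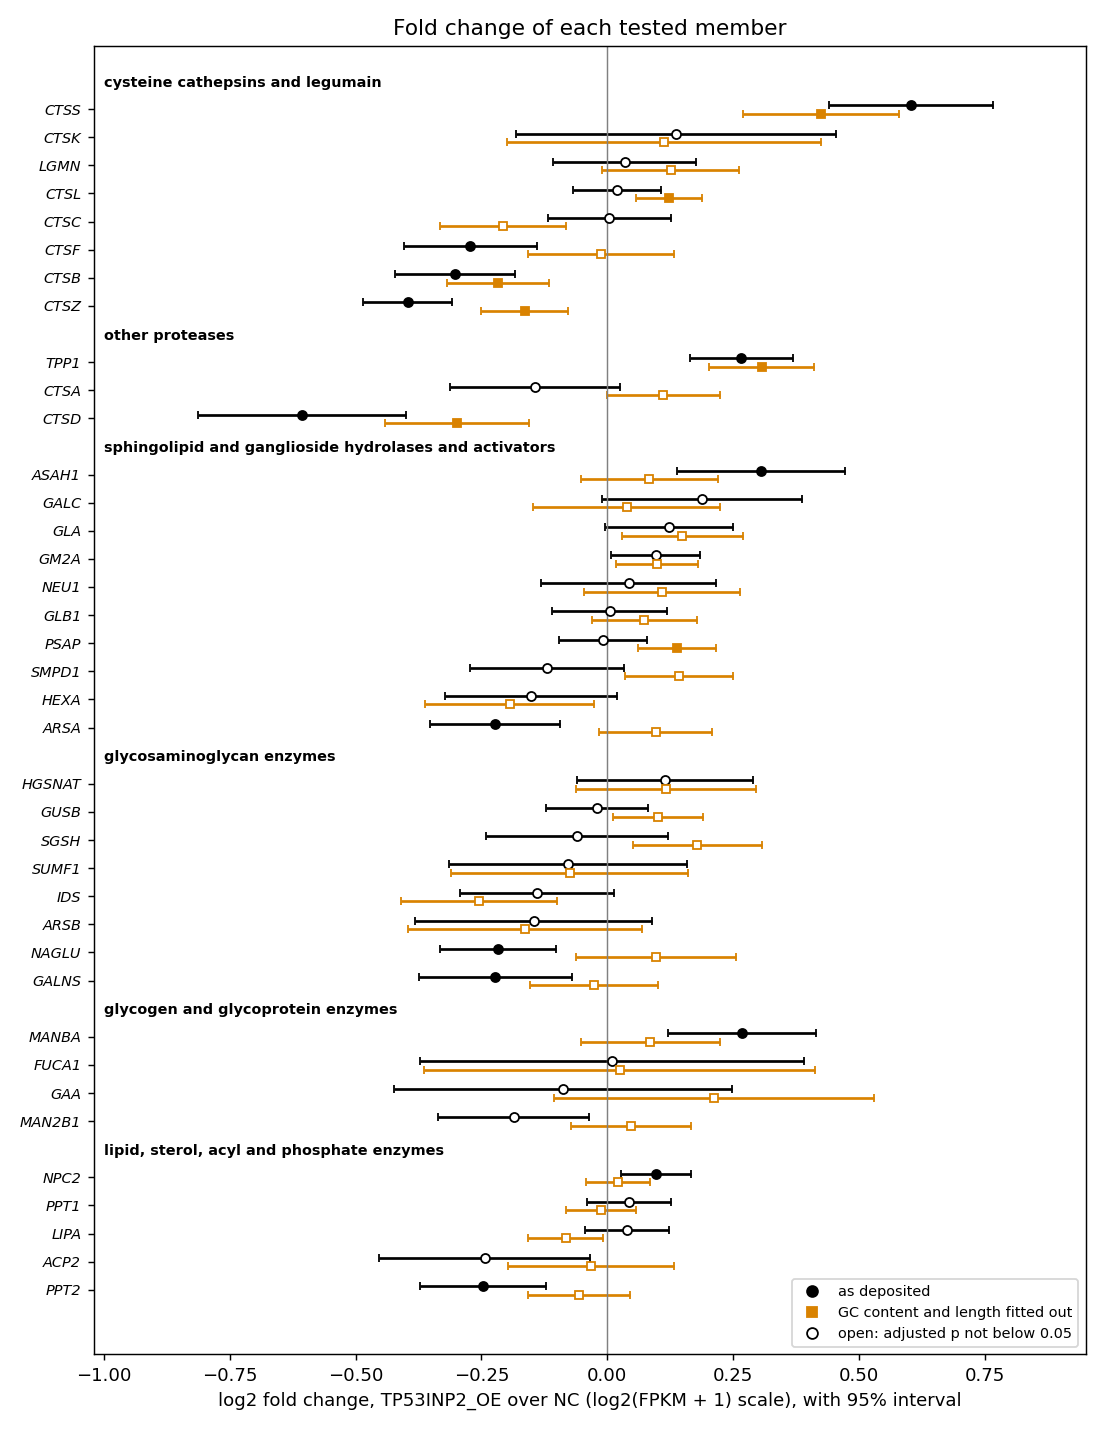
Log2 fold change, TP53INP2_OE over NC, with its 95% interval for each of the 38 tested hydrolase genes, ordered within role groups. Circles are values as deposited and orange squares values with trends on GC content and gene length subtracted; filled symbols passed an adjusted p of 0.05. As deposited, CTSS at 0.60 and CTSD at -0.61 lie at the ends.

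The length used to scale FPKM equals or is near the count of all annotated exon bases of a gene (12611 for both in HEXA). Levels of genes whose transcripts use only part of these bases may be understated, so ranks between genes are approximate. CTSB, with a length of 7317 bases, had more reads than PSAP, with 3189, in every library (17864 against 15346 in TP53INP2_OE replicate 1). PSAP, CTSB, CTSL and CTSZ averaged 100 FPKM or more over all libraries, 13 genes lay between 10 and 100, 18 between 1 and 10, and 6 under 1. The 4 at 100 FPKM or more made up 64.6% of the summed FPKM of all 41 in TP53INP2_OE and 66.5% in NC. That sum was 1046, 1017 and 1014 FPKM in TP53INP2_OE, against 1096, 1109 and 1060 FPKM in NC. Every TP53INP2_OE sum was below every NC sum, by 62.8 FPKM on average. CTSB accounted for a difference of -33.2 FPKM and CTSZ for -28.3 FPKM, and without them the sums averaged 795 FPKM in TP53INP2_OE and 797 FPKM in NC. CTSB and CTSZ had the largest differences of the 41, so a small remainder does not mean that the others were unchanged. Opposite changes offset within it, such as CTSD at -8.45 FPKM against CTSS at 8.26 FPKM.

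**Figure D4:**
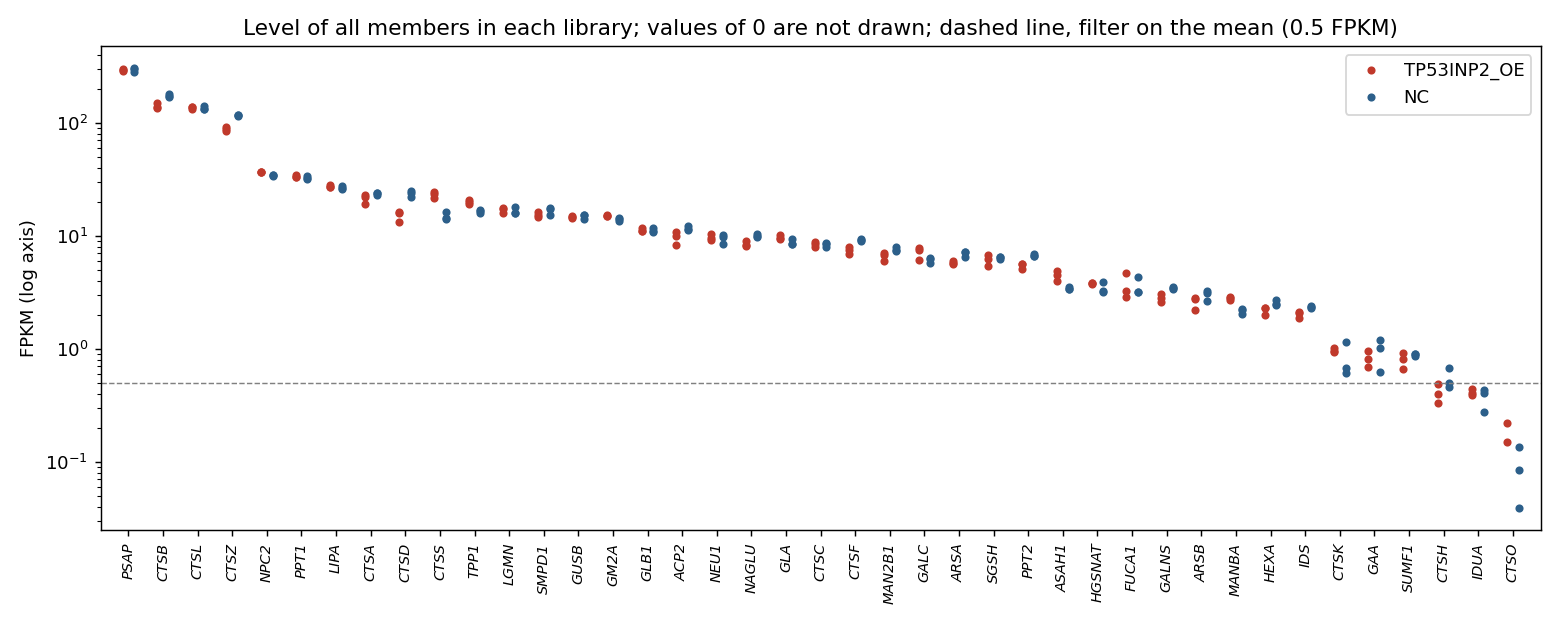
FPKM on a log axis in each TP53INP2_OE library (red, left) and each NC library (blue, right) for the 41 hydrolase genes, ordered by mean; values of 0 are not drawn, and the dashed line is the filter at 0.5 FPKM. PSAP, CTSB, CTSL and CTSZ stand above all others, and CTSH, IDUA and CTSO fall below the filter.

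Promoters were compared because the E-box CACGTG is the known site of TFEB and TFE3, and the CLEAR element, searched here as CACGTG with GT just before and AC just after it, contains one. RefSeq promoter windows on GRCh38.p14, from 250 bases before to 50 after a gene's start, were matched for 28 of the 41. The E-box was in 8 of them (28.6%), beside 12.8% of 9491 tested genes with a window and 8.77% of all 27305. The CLEAR letters were in 2 (7.14%; GAA and GALNS), beside 0.927% of tested genes and 0.421% of all. Both motifs read the same on either strand, and each CLEAR match holds an E-box. The 8 were CTSD, CTSF and GALNS, which fell, and ARSB, CTSA, GAA, NEU1 and SUMF1, which did not pass. Of the 5 genes that fell and had a window, 3 held the E-box and CTSZ and PPT2 did not. Of the 19 that did not pass, 5 held it, and of the 2 that rose, TPP1 and NPC2, neither did. These groups are by the calls as deposited. Corrected, only CTSD and CTSZ of the 5 were still lower, and only TPP1 of the 2 was still higher. Windows of the 3 that fell with the motif are shown beside those of CTSZ, which fell without it, and TPP1, which rose without it. Each is 5′ to 3′ on the minus strand, the strand of the gene, with the motif in capitals.
CTSD, chr11:1763878-1764177: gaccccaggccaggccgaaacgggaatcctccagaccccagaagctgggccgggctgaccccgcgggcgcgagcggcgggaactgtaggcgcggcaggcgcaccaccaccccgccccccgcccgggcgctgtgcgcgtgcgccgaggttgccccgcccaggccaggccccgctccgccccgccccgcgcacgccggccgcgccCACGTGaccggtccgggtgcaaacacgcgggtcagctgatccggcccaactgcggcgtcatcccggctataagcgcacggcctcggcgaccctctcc
CTSF, chr11:66568557-66568856: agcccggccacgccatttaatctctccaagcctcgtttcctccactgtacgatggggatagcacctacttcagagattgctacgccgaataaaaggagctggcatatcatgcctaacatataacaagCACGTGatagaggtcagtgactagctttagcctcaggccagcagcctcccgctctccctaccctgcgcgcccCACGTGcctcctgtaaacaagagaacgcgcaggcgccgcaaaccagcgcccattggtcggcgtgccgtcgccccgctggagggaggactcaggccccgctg
GALNS, chr16:88856898-88857197: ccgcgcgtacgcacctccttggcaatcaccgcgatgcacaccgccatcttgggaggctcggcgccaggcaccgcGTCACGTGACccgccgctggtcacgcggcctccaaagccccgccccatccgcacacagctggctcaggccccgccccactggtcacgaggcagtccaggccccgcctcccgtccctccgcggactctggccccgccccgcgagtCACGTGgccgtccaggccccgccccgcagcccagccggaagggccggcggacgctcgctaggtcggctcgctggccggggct
CTSZ, chr20:59007205-59007504: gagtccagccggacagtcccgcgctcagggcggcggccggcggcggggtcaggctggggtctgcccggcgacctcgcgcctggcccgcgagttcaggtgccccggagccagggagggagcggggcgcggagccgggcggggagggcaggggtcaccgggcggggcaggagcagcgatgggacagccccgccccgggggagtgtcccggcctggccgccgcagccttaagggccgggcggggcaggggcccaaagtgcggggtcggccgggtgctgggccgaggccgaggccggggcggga
TPP1, chr11:6619373-6619672: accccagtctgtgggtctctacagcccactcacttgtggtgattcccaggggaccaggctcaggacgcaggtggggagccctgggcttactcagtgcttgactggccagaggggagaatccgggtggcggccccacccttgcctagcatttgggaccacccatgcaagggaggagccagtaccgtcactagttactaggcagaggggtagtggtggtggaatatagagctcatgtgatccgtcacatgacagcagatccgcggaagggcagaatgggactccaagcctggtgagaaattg
The window of CTSD held 1 E-box, that of CTSF 2, and that of GALNS 2, of which 1 was a CLEAR match. The motif was thus present in some genes that fell and absent from others, and a match is a description of letters, not of binding.

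The proteins that deliver the hydrolases, other hydrolases, inhibitors and membrane proteins were counted the same way. Of 24 tested genes for delivery to the lysosome, 5 rose and 5 fell (20.8% each), near the 16.4% and 18.6% of all tested genes. Corrected, 1 was higher (4.17%) and 2 lower (8.33%), beside 4.53% and 5.88% of all tested genes. AP1M1, an adaptor subunit at the trans-Golgi, fell to 10.99 ± 0.416 FPKM in TP53INP2_OE, against 13.7 ± 0.387 FPKM in NC (log2 fold change -0.29, adjusted p = 0.00466, corrected -0.29). VPS26A, a retromer subunit, rose (0.32, adjusted p = 0.00900), but not corrected (0.16, adjusted p = 0.0808). NAGPA, which uncovers the mannose 6-phosphate tag, and GGA1, which sorts its receptors, fell by 0.35 and 0.29, also not past the threshold when corrected. Of 25 tested other lysosomal hydrolases, 5 rose and 5 fell (20.0% each), as deposited also near the background of 16.4% and 18.6%. Corrected, 4 were higher (16.0%) and 1 lower (4.0%), beside 4.53% and 5.88% of all tested genes. The list's difference from that corrected background was not tested. CTSV, the closest relative of CTSL, fell to 1.18 ± 0.0563 FPKM in TP53INP2_OE, against 1.65 ± 0.194 FPKM in NC (log2 fold change -0.28), and the corrected change was -0.43 (adjusted p = 0.0330). DPP7 and HYAL2 fell by 0.54 and 0.52, and AGA rose by 0.37, none past the threshold when corrected.

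Cystatins hold cysteine cathepsins inactive. Of 8, 3 were tested, and by limma none passed, none had an unadjusted p under 0.05 and none passed by voom. Corrected, none passed either, and 2 had an unadjusted p under 0.05: CST3 (-0.089, adjusted p = 0.0964) and CSTB (0.20, adjusted p = 0.112). CST3 was the most abundant, at 72.4 ± 1.89 FPKM in TP53INP2_OE and 74.7 ± 1.05 FPKM in NC. Of 19 tested genes for lysosomal membrane proteins, the proton pump and the MiT-TFE factors, 8 rose (42.1%) and 3 fell (15.8%), beside 16.4% and 18.6% of all tested genes. Corrected, 6 were higher (31.6%) and 1 lower (5.26%), beside 4.53% and 5.88%; the list's difference from the background was not tested. OSTM1, a subunit of a chloride-proton exchanger, averaged 13.8 FPKM in TP53INP2_OE and 9.69 FPKM in NC (log2 fold change 0.47, corrected 0.26). ATP6V1H, a proton-pump subunit, averaged 12.8 FPKM in TP53INP2_OE and 9.33 FPKM in NC (0.42, corrected 0.41). CD63, a tetraspanin of late endosomes, averaged 70.2 FPKM in TP53INP2_OE and 97.4 FPKM in NC (-0.46, corrected -0.32), and these 3 passed both ways. TFE3, one of the factors that bind CLEAR, averaged 21.9 FPKM in TP53INP2_OE and 28.2 FPKM in NC (-0.35), and its corrected change of -0.11 did not pass (adjusted p = 0.127).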

How the data were processed

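RNA sequencing libraries of SW872-S cells, 3 TP53INP2_OE and 3 NC, were grouped by their genotype labels, with replicate numbers from the titles. The authors deposited FPKM values for 60843 genes, with gene name, position and length per the file headers. Per the labels' protocols, total RNA was extracted with Trizol and sequenced after an Illumina TruSeq preparation. The submitters' processing notes name Bowtie 0.12.2, mm8 and GRCh38 without saying what each was used for; the read counter and its use of strand are not given in the sources used here. All 41 gene IDs were found in GENCODE 29 (GRCh38) on the same chromosome, 37 with the same start or end. FPKM times gene length gave whole multiples of 1 read for 100% of values above 0 (tolerance 0.01), and these recovered reads give the depth, 16038062 to 17607612 per library, and entered voom as an alternative. The total behind the FPKM differed slightly from the recovered reads, for a reason not given. It was 16183328 against 16047428 reads in TP53INP2_OE replicate 1 and 16298974 against 16311210 in NC replicate 1. Voom used the recovered reads as library sizes.

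The test was limma 3.58.1 (R 4.3.3) on log2(FPKM + 1), with an empirical Bayes trend and Benjamini-Hochberg adjustment over the 14791 genes whose mean reached 0.5 FPKM, at a threshold of 0.05. This scale understates the change of low genes. The main test used no count model, since the table holds FPKM, and voom on the recovered reads was run beside it as an alternative. For the correction, deviations from gene means were regressed, library by library, on natural splines with 5 degrees of freedom for the GC content of the longest transcript, known for 98.4% of tested genes and all 38 tested members, and for log2 gene length. The code was tested on simulated data. The members, the lists and the naming rule (all members, and up to 4 genes of each related list) were chosen with earlier results of these data known, so counts over them are descriptions. The alternatives are in the closing section.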

Additional observations from a re-analysis of the deposited data

How the results depend on the processing

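Another pseudocount (0.1 FPKM), TPM scaling and quantile normalization left all 13 calls past the threshold, and 10 of 10 were past it among genes with at least 5 FPKM. Protein-coding genes only and voom each left 12 of 13, no filter on low values 11, the GC content and gene length correction 5, and the fits without 1 library 8 to 12. Voom called 5 hydrolases higher and 12 lower, beside 2986 and 3173 of all 14791 tested genes. The main fit called 2430 and 2753 of these. Voom added GALC (adjusted p = 0.0216) to those that rose and CTSA (0.0389), HEXA (0.0390), MAN2B1 (0.0249) and ACP2 (0.00974) to those that fell. The count of hydrolases that rose was 3 with the 5 FPKM filter, where fewer genes were tested and 2136 of all 7264 rose. Under quantile normalization it was 8, beside 2712 of all 14791 tested genes. The corrected fit gave 3 lower, with 659 and 855 of all tested genes higher and lower. Leaving out 1 library gave 2 to 5 hydrolases higher and 4 to 9 lower, and 1454 to 2216 of all genes higher and 1811 to 2592 lower. The lowest count higher was without NC replicate 1 and the lowest count lower without NC replicate 2, and 3 were higher without TP53INP2_OE replicate 2. With the replicate number as a block, 4 hydrolases were higher and 7 lower (1980 and 2416 of all genes). With the block and the correction together, 2 were higher and 1 lower (267 and 401 of all genes). There CTSD (adjusted p = 0.0839), CTSZ (0.0938), CTSL (0.0977) and PSAP (0.0570), past the threshold with the correction alone, did not pass. Same-numbered libraries correlated by 0.0107 to 0.017 in their deviations from group means, so the numbers were not taken to pair them, and TP53INP2_OE replicate 2 correlated best with NC replicate 3 (0.015). The cause of these shifts was not tested.

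Log2 fold changes that changed sign after correction, with and without the block, were PPT1 at -0.013, LIPA at -0.083, CTSC at -0.21, PSAP at 0.14, GUSB at 0.10, SGSH at 0.18, GAA at 0.21, SMPD1 at 0.14, CTSA at 0.11, MAN2B1 at 0.047, NAGLU at 0.097 and ARSA at 0.096. Of these only NAGLU and ARSA were past the threshold as deposited. PSAP was at 0.0082 under TPM and 0.14 under quantile normalization, and GUSB at 0.0079 under quantile normalization. Without 1 library, the sign changed for genes near 0: NEU1 (-0.026 to 0.090), FUCA1 (-0.15 to 0.12), GLB1 (-0.028 to 0.034), CTSC (-0.024 to 0.038), PSAP (-0.037 to 0.015), SGSH (-0.12 to 0.016) and GAA (-0.21 to 0.0043). Depth limits CTSO, with 0 to 11 reads, and the other members under 1 FPKM, whose values move in coarse steps.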
